A study of Mus musculus with 2 samples.

Results

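GATA4 occupancy was examined at 10 genes that encode transcription factors and cofactors of the endothelial and blood lineages: the ETS factors Erg, Fli1, Ets1, Ets2 and Elk3, the SCL complex genes Tal1, Lmo2 and Lyl1, and the SOX factors Sox17 and Sox18. The genes were chosen by name, with earlier results of these data known, so comparisons of their counts with all genes are descriptive. The p-values given below do not take this choice into account. A GATA4 occupied site (OS) was counted for a gene when its midpoint lay in the gene body or within 50 kb of it. By this rule 24 of the 4409 OS of the common list belonged to 9 of the 10 genes. GATA4 was precipitated from whole livers of adult C57BL/6 x Sv129 mice with the GATA4 C-20 antibody, and liver DNA without immunoprecipitation (input) from mice of the same strain served as background. The sample labels give an age of 2 to 3 months for both, whereas the study's methods state a slightly older range for the ChIP mice. The study names 2 biological replicates of 2 mice each, which the labels list as 1 ChIP sample and 1 input sample. No mutant or treated group entered. Whole liver holds hepatocytes, endothelial cells, Kupffer cells, stellate cells, cholangiocytes and blood cells, and ChIP-seq on whole liver does not separate them. Since both replicates stand in 1 list of sites, no value has a replicate error, and sites rather than mice are the units of every test. All coordinates are those of mm9.

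GATA factors are zinc finger proteins that bind the DNA word WGATAR, in which W is A or T and R is A or G. In endothelial and blood progenitor cells they share many regulatory regions with ETS factors, which bind around a GGAA core, and with the bHLH protein SCL, the product of Tal1, which binds E-boxes (CANNTG, where N is any base) as a heterodimer with E proteins. LMO2 has no DNA binding of its own and bridges SCL to a GATA factor, which is why a composite of a shortened E-box, CTG, and a GATA word at a fixed distance is known as a binding pattern of that complex. ERG and FLI1 maintain endothelial identity, ETS1 takes part in angiogenesis, ELK3 is a ternary complex factor that can repress transcription, and LYL1 is the closest relative of SCL. SOX17 and SOX18 act in arterial and lymphatic endothelium. GATA4 is prominent in the sinusoidal endothelium of the liver as well as in other cells of the organ.

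The 3 genes with the most OS were ETS genes. Erg and Ets1 each held 6 OS of the common list, Fli1 held 4, Elk3 and Tal1 held 2 each, Ets2, Lyl1, Sox17 and Sox18 held 1 each, and Lmo2 held none. Among 22380 protein-coding gene records of GENCODE M1, 27.7% had at least 1 common OS under the same rule, 9.15% had at least 2, 1.05% had at least 4 and 0.201% (45 genes) had at least 6. The 5 ETS genes together accounted for 19 of the 24 OS, and all 5 of them had at least 1. Genes with long bodies have longer windows: the bodies of Erg, Ets1 and Fli1 measured 227.4, 121.6 and 119.2 kb, those of the other members 1.8 to 63.7 kb. Per 100 kb of window the members held 1.504 OS, and the merged windows of all protein-coding genes held 0.233. By gene the density was 2.71 OS per 100 kb at Ets1, 1.83 at Erg, 1.82 at Fli1, 1.73 at Tal1, 1.22 at Elk3 and 0.84 to 0.98 at Ets2, Lyl1, Sox17 and Sox18. Tal1 thus came close to Erg and Fli1 once window length was counted, but on only 2 OS, 1 of them nearest the TSS of another gene. Densities of genes with 1 or 2 OS would change much with a single site.

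**Figure D1:**
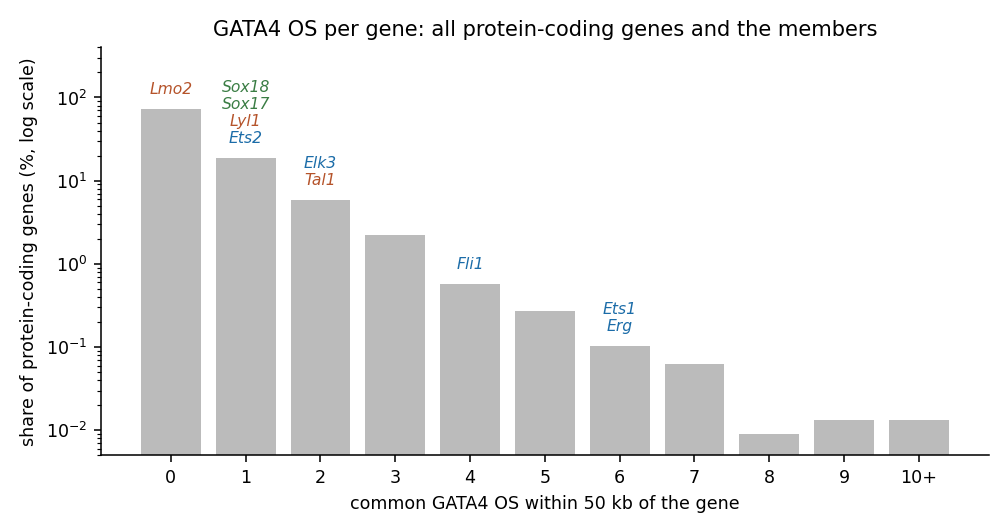
Share of protein-coding genes (vertical axis, percent on a log scale) by the number of common GATA4 OS within 50 kb (horizontal axis), with each member gene written above the bar of its own count. Erg and Ets1 stand above the bar for 6 OS, Fli1 above that for 4, and Lmo2 above that for 0.

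The common list is the intersection of both callers, so each of its OS was called by SPP and by MACS2. SPP alone gave the same number of peaks as the common list at every gene. It follows from this that all 24 SPP peaks met a MACS2 peak (100%, Wilson 95% interval 86.2 to 100), which adds no further support. Of all 4811 SPP peaks, 91.6% met one. MACS2 alone gave 30 peaks in the same windows: 7 each at Erg and Ets1, 5 at Fli1, 4 at Elk3, 2 each at Ets2 and Tal1, 1 each at Lyl1, Sox17 and Sox18, and none at Lmo2. The shares of all protein-coding genes with a peak in the window were 29.2% for SPP and 33.9% for MACS2. Of the 24 common OS, 22 had the transcription start site (TSS) of their own member gene as the nearest protein-coding TSS. The exceptions were Fli1 OS number 74, where the TSS of the potassium channel gene Kcnj1 was nearest at 6842 bp, and 1 OS of Tal1. The rule takes only sites in or near a member gene, and the same share for other genes is not given here. The count of 22 is therefore descriptive. OS are named here by their number in the common list.

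**Figure D2:**
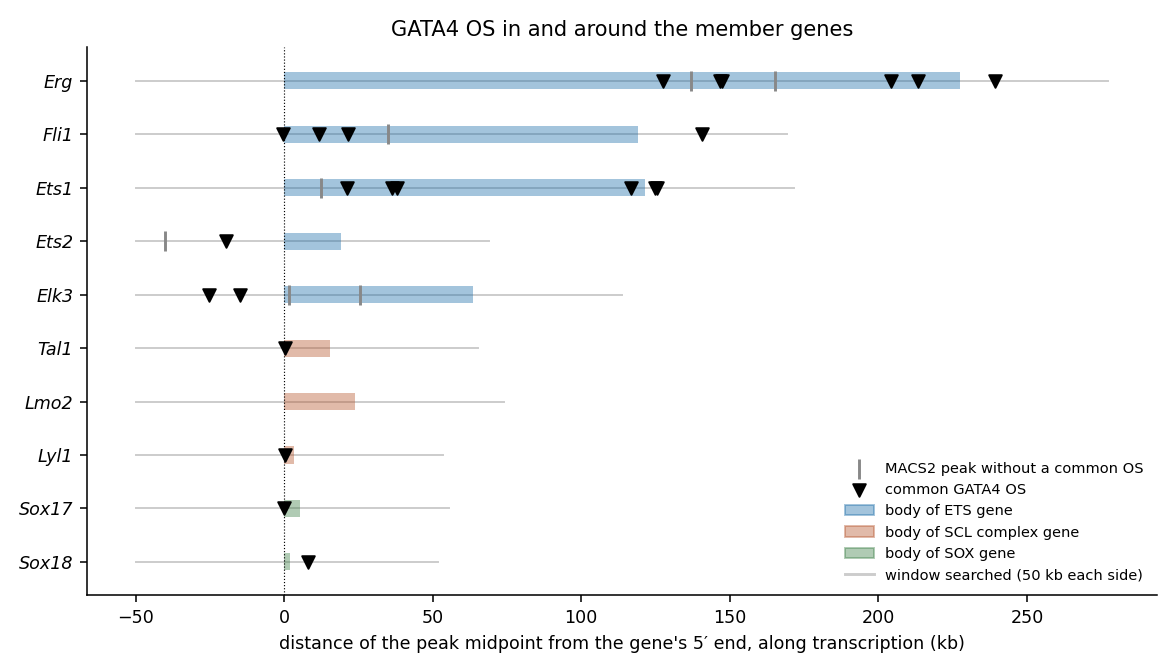
Midpoints of the common GATA4 OS (black triangles) and of MACS2 peaks without a common OS (grey ticks) along each member gene, as distance in kb from the 5′ end of the gene in the direction of transcription, with the gene body as a coloured bar and the 50 kb search window as a grey line. An OS of Tal1 that is not described is left out. The Erg OS lie 127.4 to 239.2 kb from the 5′ end, the last of them past the 3′ end, and the OS of Tal1, Lyl1 and Sox17 nearest the start lie within 1 kb of it.

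At Erg, 5 OS lay in the gene body and 1 lay 11783 bp beyond its 3′ end. None was near the 5′ end of the longest transcript, since the distances from it ran from 127.4 to 239.2 kb. OS 3793 (142 bp wide) lay 125 bp past the start of a shorter Erg transcript, inside intron 3 of the longest one. OS 352 and OS 519, also in intron 3, were 703 bp apart and fell on a single MACS2 peak of 1507 bp, so they may not count as separate sites. OS 563 lay in intron 5, OS 510 in intron 8 and OS 892 past the 3′ end. Of the 6 Erg OS, 5 had numbers under 1000 in the common list of 4409, and OS 3793, the one at an annotated start, was the exception. All 6 held WGATAR within 100 bp of the midpoint, 10 matches in all. The earliest Erg OS of the list and the one at the internal start are shown as reference sequence of mm9, each as the central 120 bp or, where the OS was 180 bp wide or less, as the whole OS without annotated untranslated bases. Capitals mark WGATAR on either strand, which reads YTATCW when it lies on the minus strand (Y is C or T). The same rules hold for the sequences of the other genes up to Sox18.
Erg OS 352, chr16:95661622-95661741, plus strand: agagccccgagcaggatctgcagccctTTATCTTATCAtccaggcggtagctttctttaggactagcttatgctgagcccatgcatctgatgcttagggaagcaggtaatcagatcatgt
Erg OS 3793, chr16:95680715-95680852, plus strand: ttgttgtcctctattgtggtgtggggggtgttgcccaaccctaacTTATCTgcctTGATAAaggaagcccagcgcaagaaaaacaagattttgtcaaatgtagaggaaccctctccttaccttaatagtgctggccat
OS 352 held AGATAA and TGATAA on the minus strand, sharing 1 base, so that the capitals run together. OS 3793 held a WGATAR on each strand, and an ETS word lay directly beside the second of them.

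At Fli1, 1 OS lay at the start of the gene, 2 in intron 1 and 1 beyond the 3′ end. OS 2010 (chr9:32349129-32349289) lay 235 bp upstream of the TSS, with its only WGATAR 64 bp from the midpoint, near its edge. OS 1783 lay 21.6 kb and OS 4063 11.6 kb downstream of the TSS. OS 74, the earliest of the gene in the list, lay 21381 bp beyond the 3′ end of Fli1 and was 375 bp wide, and it held 3 WGATAR.
Fli1 OS 74, chr9:32208353-32208472, plus strand: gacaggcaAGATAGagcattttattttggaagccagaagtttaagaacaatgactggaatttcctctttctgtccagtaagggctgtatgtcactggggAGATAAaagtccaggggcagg
Fli1 OS 2010, chr9:32349129-32349289, plus strand: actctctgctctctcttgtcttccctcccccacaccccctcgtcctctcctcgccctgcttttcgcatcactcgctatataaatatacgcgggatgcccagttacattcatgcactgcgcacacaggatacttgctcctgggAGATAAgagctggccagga
The window shown for OS 74 holds 2 of its 3 WGATAR, since the other lies 72 bp from the midpoint. The OS at the Fli1 start thus carried the word at its edge, whereas OS 4063 in intron 1 had TGATAA 8 bp from the midpoint and 3 ETS words.

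Ets1 lies head to head with Fli1 on chromosome 9, with 94.8 kb between the bodies. That interval held 1 OS, the one upstream of the Fli1 start. Of the 6 Ets1 OS, 4 lay in the body: OS 2527 in intron 2, OS 1792 and OS 689 in intron 3, 1391 bp from each other, and OS 3069 in exon 7 of a shorter transcript. OS 1674 and OS 2364 lay 3073 and 3713 bp past the 3′ end, 640 bp apart, each on a MACS2 peak of its own. The Ets1 OS nearest the 5′ end of the longest transcript was OS 2527, at 21.2 kb. Only 3 of the 6 held WGATAR in 200 bp around the midpoint, against 6 of 6 at Erg and 4 of 4 at Fli1. All 6 held an ETS word, with 4 overlapping copies in OS 2364. The earliest of the list was OS 689, with 1 AGATAG.
Ets1 OS 689, chr9:32481563-32481682, plus strand: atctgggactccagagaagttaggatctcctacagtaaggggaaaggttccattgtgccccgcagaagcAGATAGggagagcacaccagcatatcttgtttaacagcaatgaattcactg

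Ets2 and Elk3 had no OS in the body or at the start. The OS of Ets2, number 2525 (320 bp), lay 19.5 kb upstream of its 5′ end, in the 115.5 kb between Erg and Ets2 on chromosome 16. That stretch held 2 OS, and the other one lay beyond 50 kb of both genes. At Elk3, OS 3213 lay 14.8 kb and OS 4007 25.2 kb upstream. OS 4007 held 7 ETS words in the 200 bp around its midpoint, the most of the 24, and 6 of them lay inside the deposited OS. Its WGATAR lay 95 bp from the midpoint, outside the deposited OS.
Ets2 OS 2525, chr16:95904168-95904287, plus strand: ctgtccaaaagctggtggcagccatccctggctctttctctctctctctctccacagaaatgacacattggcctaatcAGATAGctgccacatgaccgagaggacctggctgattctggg
Elk3 OS 3213, chr10:92788621-92788768, plus strand: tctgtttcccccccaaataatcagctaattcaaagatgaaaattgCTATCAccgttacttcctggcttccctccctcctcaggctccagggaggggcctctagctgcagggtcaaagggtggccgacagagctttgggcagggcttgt
OS 3213 of Elk3 had the only TGATAG of the 24 OS, with an ETS word 6 bp away.

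Both SCL complex genes with an OS carried one at their start. OS 40 of Lyl1 was the earliest of all 24 in the common list and number 10 of 5867 in the MACS2 list. It was 302 bp wide, lay 212 bp past the TSS in the untranslated part of exon 1, and was also inside the gene record of Nfix, which overlaps Lyl1 there. It held 2 WGATAR, each shown with 10 bases on both sides.
Lyl1 OS 40, chr8:87225532-87225557, plus strand: gcattgcttcTTATCAgccgcggcca
Lyl1 OS 40, chr8:87225561-87225586, plus strand: agccagacccTTATCTgcacaggccc
At Tal1, OS 1471 lay 261 bp past the TSS in intron 1. Its base composition set it apart from the other OS, with 69.6% G and C and a ratio of observed to expected CpG of 1.1, whereas the other 23 were under 0.7.
Tal1 OS 1471, chr4:114729233-114729352, plus strand: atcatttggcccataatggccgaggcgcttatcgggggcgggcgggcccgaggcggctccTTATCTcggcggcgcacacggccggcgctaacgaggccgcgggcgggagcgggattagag
The other OS of Tal1 enters the counts and tests here but is not described.

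The intron 1 OS of Fli1, number 4063, lies in an intron that holds a known enhancer named +12. Whether the OS coincides base by base with this enhancer was not tested. It is shown whole, with the words WGATA, GATAR and the ETS words (GGAA after A or C and before A or G) of either strand in capitals, and was picked for display after its values were seen.
Fli1 OS 4063, chr9:32337318-32337490, plus strand: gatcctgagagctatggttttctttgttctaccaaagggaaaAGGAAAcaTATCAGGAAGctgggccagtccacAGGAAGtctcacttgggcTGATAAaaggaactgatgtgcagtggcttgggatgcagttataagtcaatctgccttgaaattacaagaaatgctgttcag
OS 4063 held 3 ETS words beside TGATAA, one of them sharing bases with a further GATA word.

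At Lmo2 no list had a peak within 50 kb. Its nearest common OS lay 116.8 kb downstream of the body, with the TSS of Cd59a nearest, and 132.9 kb upstream, with that of Caprin1 nearest. The nearest MACS2 peak lay 107.7 kb upstream, so a window of 100 kb also left Lmo2 without a site.

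Sox17 and Sox18 had 1 OS each, in contrasting places. OS 4245 of Sox17 (320 bp) lay 75 bp upstream of the TSS and was the latest of the 24 in both lists, at number 4938 of the MACS2 list. OS 1213 of Sox18 lay 8190 bp downstream of the TSS, which is 6386 bp past the 3′ end of this gene of 1.8 kb.
Sox17 OS 4245, chr1:4486510-4486629, plus strand: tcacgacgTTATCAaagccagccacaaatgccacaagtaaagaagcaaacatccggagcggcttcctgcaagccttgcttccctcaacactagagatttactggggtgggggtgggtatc
Sox18 OS 1213, chr2:181398096-181398215, plus strand: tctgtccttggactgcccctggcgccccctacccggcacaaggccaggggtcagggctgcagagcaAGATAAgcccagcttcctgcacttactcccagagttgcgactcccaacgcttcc
The WGATAR of Sox17 lay 49 bp and that of Sox18 9 bp from the midpoint.

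Of the 10 genes, Erg, Fli1, Tal1, Lyl1 and Sox17 had an OS midpoint within 1 kb of an annotated TSS, and 3.11% of all protein-coding genes did. A body OS was present at Erg, Fli1, Ets1, Tal1 and Lyl1, against 7.67% of all protein-coding genes. By place, 11 of the 24 OS were intronic, 2 exonic, 5 upstream and 6 downstream of the body. Counted over sites, 5 of the 24 OS (20.8%) and 646 of the 4385 other common OS (14.7%) lay within 1 kb of a protein-coding TSS. The sites at starts spread over the list, since Lyl1 had the earliest number of all members and Sox17 the latest.

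The deposited scores were all 1000 and say nothing about strength, so the number of each OS in its list was used as its position. According to the study's methods, SPP peaks were ranked by signal and MACS2 peaks by p-value for the IDR step. Whether the deposited numbers keep these orders is not given in the sources used here. In the common list the 24 OS had a mean position of 1972.5 ± 1389.7 (SD), a median of 1787.5 and a range from 40 to 4245. The 4385 other OS had a mean of 2206.3 ± 1272.3. The difference of means, member minus other, was -233.8 places (permutation test, 100000 resamples, two-sided, p = 0.371). With the list divided into 4 equal parts, 8 OS stood in the first, 6 in the second, 5 in the third and 5 in the fourth. The 8 OS with numbers under 1000 came from Erg, Fli1, Ets1 and Lyl1. Without the 6 OS of Erg the mean of the remaining member OS was 55.4 places later than that of the others. By the number of the overlapping MACS2 peak, the member OS had a mean position of 1464.5 ± 1232.2 and the others 2351.7 ± 1504.8, a difference of -887.2 places (permutation test, two-sided, p = 0.00364). The 24 OS fell on 23 MACS2 peaks, 1 of them counted for both Erg OS 352 and OS 519. Without the 6 OS of Erg, the difference in the MACS2 list kept its direction at -655 places but did not pass 0.05 (permutation test, p = 0.0646). Whether this came from Erg itself or from the smaller number of sites was not tested. Sites of 1 gene share their locus and are not independent. The genes were also chosen with earlier results of these data known, which these p-values do not take into account.

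**Figure D3:**
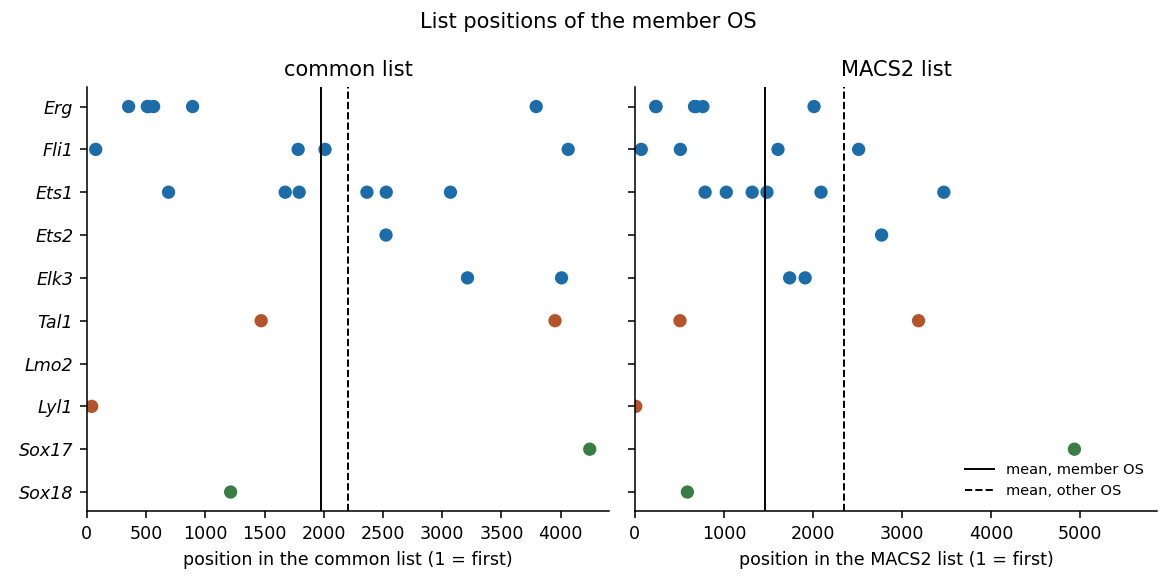
Position of each member OS in the common list (left) and of the MACS2 peak under it in the MACS2 list (right), one point per OS, by gene. The vertical lines are the means of the 24 member OS (solid) and of the 4385 other common OS (dashed), which lie at 1972.5 and 2206.3 on the left and at 1464.5 and 2351.7 on the right.

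In the 200 bp around the midpoint, 20 of 24 member OS had it (83.3%, Wilson 95% interval 64.1 to 93.3), against 3681 of 4385 other OS (83.9%, 82.8 to 85.0). The difference was -0.612 percentage points (Newcombe 95% interval -19.8 to 9.44, Fisher's exact test, two-sided, p = 1). In windows moved by 5000 bp, which serve as the background of the sequence, 33.3% of the member windows and 30.8% of all windows held it. Within the deposited bounds of the OS, 19 of the 24 did. In the MACS2 list, whose peaks are wider, the central 200 bp held WGATAR in 14 of 30 peaks at the member genes (46.7%) and in 64.9% of the others, a difference of -18.2 percentage points (Newcombe 95% interval -34.7 to -1.01, Fisher's exact test, p = 0.0532). The 28 matches of the member OS were TGATAA 13 times, AGATAA 11 times, AGATAG 3 times and TGATAG once. In the other OS, TGATAA made up 26.9% and AGATAA 44.9% of 5667 matches, and in the member OS 46.4% and 39.3%. This difference was not tested, since matches of 1 OS are not independent. Of the 28 matches, 23 lay within 50 bp of the midpoint.

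Ets1 OS 1674, OS 1792 and OS 2527 were among the 4 OS without WGATAR in 200 bp. OS 1674 held 3 shorter GATA words (WGATA or GATAR) there, all outside its deposited bounds, and OS 1792 and OS 2527 held none. No call on the factor behind such a site can be read from missing letters.

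ETS words stood in 20 of 24 member OS (83.3%, Wilson 95% interval 64.1 to 93.3) and in 3008 of 4385 other OS (68.6%, 67.2 to 70.0). The difference of 14.7 percentage points had an interval from -4.5 to 24.8 and did not pass Fisher's exact test (p = 0.183, 0.433 after Benjamini-Hochberg adjustment over the 5 words tested). In the windows moved by 5000 bp the shares were 29.2% and 43.5%. Within 100 bp of sequence instead of 200 the difference was 22.8 percentage points (Fisher's exact test, unadjusted p = 0.0384). WGATAR and an ETS word occurred together in 16 of the 24 OS. Both words were also common in the other OS (WGATAR in 83.9%, an ETS word in 68.6%). The share of the other OS with both is not given here, so the joint count is descriptive. The distance between the closest pair ran from shared or adjoining bases at Erg OS 510 and OS 3793 to 84 bp at Ets2 OS 2525. Erg OS 352, Fli1 OS 1783 and OS 2010 and Tal1 OS 1471 had no ETS word, so 2 of the 4 OS at Fli1 went without.

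E-boxes were in 16 of 24 member OS (66.7%) and in 61.7% of the others, a difference of 4.93 percentage points (interval -15.1 to 20.4, Fisher's exact test, p = 0.679, adjusted 0.849). In the moved windows the shares were 62.5% and 67.2%. SOX words (AACAAT and AACAAAG) were in 6 of 24 member OS (25.0%) and in 16.1% of the others, a difference of 8.95 percentage points (interval -4.1 to 28.9, Fisher's exact test, p = 0.26, adjusted 0.433). In the moved windows the shares were 20.8% and 15.1%. Neither SOX gene had a SOX word in its own OS.

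The composite of CTG, 8 or 9 bases and GATAA, the pattern of the SCL, LMO2 and GATA complex, was in 4 of 24 member OS (16.7%, Wilson 95% interval 6.68 to 35.9) and in 300 of 4385 others (6.84%, 6.13 to 7.63). The difference of 9.83 percentage points had an interval from -0.194 to 29.0 and did not pass Fisher's exact test (p = 0.0789, adjusted 0.395). In the moved windows 0 of 24 and 1.09% held it. The 4 OS belonged to Erg, Fli1, Lyl1 and Sox18, and Fli1 OS 1783 held the pattern at overlapping places. Each match is shown with 6 bases on both sides, written on the strand on which CTG and GATAA (capitals) are read.
Erg OS 352, chr16:95661643-95661670, minus strand: taccgcCTGgatgataaGATAAagggct
Fli1 OS 1783, chr9:32327333-32327360, minus strand: tgtggtCTGctgataagGATAAcatgga
Fli1 OS 1783, chr9:32327339-32327367, minus strand: gctgcaCTGtggtctgctGATAAggataa
Lyl1 OS 40, chr8:87225536-87225564, minus strand: ggctgcCTGgccgcggctGATAAgaagca
Sox18 OS 1213, chr2:181398146-181398173, plus strand: tcagggCTGcagagcaaGATAAgcccag
The pattern was not in Tal1 OS 1471, at the start of the gene of SCL itself. A match is a description of letters and not a measurement of which protein bound.

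**Figure D4:**
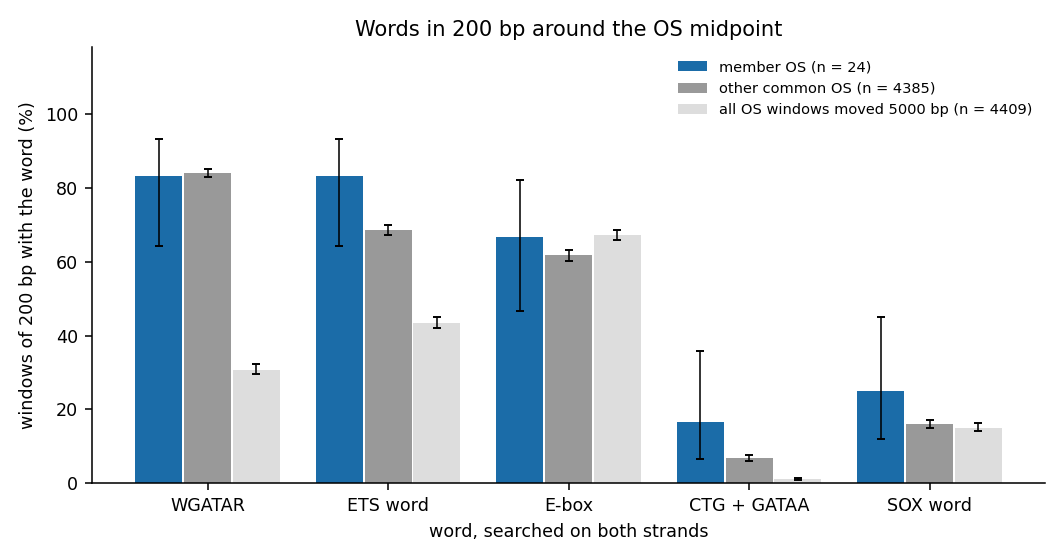
Share of 200 bp windows that hold each word on either strand (vertical axis, percent), for the 24 member OS, the 4385 other common OS and all 4409 windows moved by 5000 bp, with Wilson 95% intervals. The intervals of the member OS span the shares of the other OS for WGATAR (83.9%), the ETS word (68.6%), the E-box (61.7%), CTG with GATAA (6.84%) and the SOX word (16.1%).

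**Figure D5:**
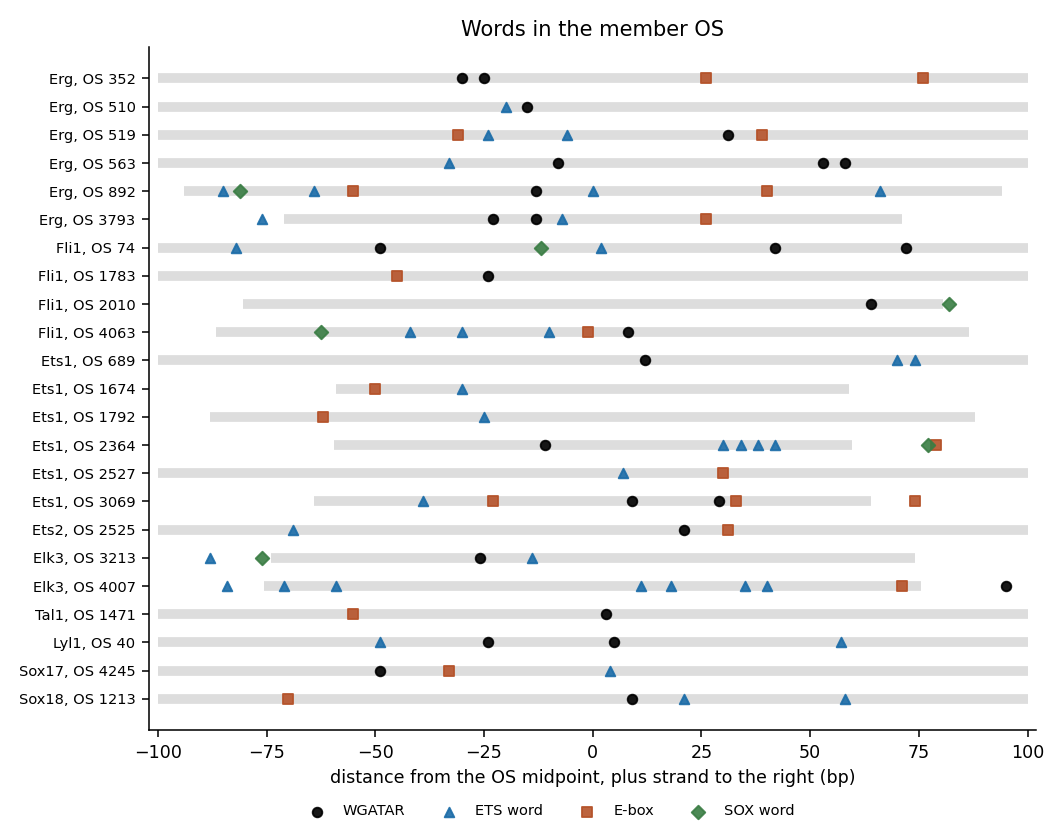
Places of WGATAR, ETS words, E-boxes and SOX words in the member OS, each on a line of its own and without the OS of Tal1 that is not described, as distance in bp from the OS midpoint, with the deposited OS as a grey bar cut at 100 bp on each side. Of the 28 WGATAR matches 23 lie within 50 bp of the midpoint, and the one of Elk3 OS 4007 lies outside its bar, at 95 bp.

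The relatives of the members were counted by the same rule, in lists also chosen with earlier results of these data known. Of 21 other ETS family genes, 10 (47.6%) had a common OS, with 13 OS in all. Etv6, a repressor needed in blood stem cells, had 3, all in its body, Elf2 had 2, and Elf1 and the rest of the 10 had 1 each. Of 20 partners of the SCL complex, 11 (55.0%) had one, with 17 OS in all. Cbfa2t3, a corepressor found with SCL, had 3, Id3, an inhibitor of E proteins, had 3, and Gata2, the GATA factor of blood progenitors and endothelium, had 2, as did the homeobox gene Hhex. Of 16 other SOX genes, 4 (25.0%) had one: Sox7, an endothelial relative of Sox17 and Sox18, had 3, and Sox10, Sox30 and Sox6 had 1 each. These shares stand beside 27.7% of all protein-coding genes. Within 10 kb the numbers fell to 2 ETS, 6 SCL partner and 2 SOX genes, beside 13.7% of all protein-coding genes.

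Markers of the cells that whole liver can hold were counted as well, since expression was not measured here. These lists were chosen with earlier results of these data known, so their counts are descriptive and no independent support for a cell type. All 10 endothelial markers had a common OS within 50 kb, 28 OS in all, with 7 at Eng, a TGF-beta coreceptor of endothelium, and 5 each at Stab2, a scavenger receptor of sinusoidal endothelium, and Tek, the angiopoietin receptor. Of 10 hepatocyte markers 8 had one, with 14 OS in all and 3 each at Alb (albumin) and Apoa2 (an apolipoprotein). Of 8 Kupffer markers 1 had one (Cd68), of 8 erythroid and blood markers 1 (Klf1), and of 8 stellate and 6 cholangiocyte markers none, beside 27.7% of all protein-coding genes. Within 10 kb, 8 of the 10 endothelial and 8 of the 10 hepatocyte markers had one, beside 13.7% of all protein-coding genes. In the study, excision of Gata4 in hepatocytes removed GATA4 from the sites then examined by ChIP-qPCR, also in preparations of all liver cells. The paper read this as occupancy in hepatocytes, but none of those sites was at a member gene. The cell type in which the OS at the member genes were bound was not tested, and the occupancy per cell and the number of cells cannot be told apart in whole liver.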

How the data were processed

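GATA4 ChIP-seq of adult mouse liver was analysed from 3 deposited peak lists on mm9, which cover 1 ChIP sample against 1 input sample. Before deposition the authors aligned reads with Bowtie 0.12.7, used SPP (in a modified version) and MACS2 2.0.10 to find peaks in each replicate and in merged reads against pooled input, set thresholds by IDR (the reproducibility of peak ranks between replicates), and intersected both lists with bedtools 2.16.1. The lists hold 4409 (common), 4811 (SPP) and 5867 (MACS2) peaks, and their deposited score is 1000 for every peak, so the position in the list replaced it. The depth behind a single OS is not in the lists, so no counting interval per OS was computed. Peaks lay within the chromosomes of the mm9 reference, and coordinates were turned to 1-based.

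Gene bodies and TSS came from protein-coding records of GENCODE M1 on the same build (22380 records). Of the symbols listed, Sox1 was not matched, and Adgre1, Spi1 and Tf were matched by older symbols. Words were searched on both strands in 200 bp around the midpoint with Python 3.11.15 and pysam 0.24.0, and compared with scipy 1.17.1 (Fisher's exact test with Benjamini-Hochberg adjustment over 5 words, and permutation tests with 100000 resamples, whose smallest p is 1e-05). Intervals of shares are Wilson intervals and those of differences Newcombe intervals, at 95%, and they cover the number of sites only. The scripts were tested on simulated data. Every member gene was named, and of each list of relatives the 3 genes with the most OS (ties by symbol). Hhex and Sox6, which tied with a named gene, and the markers were named after their values were seen. An OS of Tal1 is not reported here beyond the counts and tests it enters. The member genes and all lists were chosen with earlier results of these data known.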

Additional observations from a re-analysis of the deposited data

Results flagged for a closer look

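Of the 30 MACS2 peaks in the windows of the member genes, 7 met no common OS, so that above they entered only the MACS2 counts and the MACS2 share with WGATAR. They lay at Erg (2), Elk3 (2), Fli1 (1), Ets1 (1) and Ets2 (1), and no such peak was found at the SCL or SOX genes. Their WGATAR were counted over the whole peak, 274 to 808 bp wide, and not in the central 200 bp. The numbers below are therefore not comparable with those of the OS. Those of Erg were numbers 5536 and 5537 of the MACS2 list, 165.2 and 137.0 kb from the 5′ end in intron 3, each with 1 WGATAR. That of Fli1 was number 2936, in intron 1 at 35.0 kb with 2 WGATAR, that of Ets1 number 5797, in intron 1 at 12.3 kb with 4 WGATAR, and that of Ets2 number 4246, 40.2 kb upstream with 2 WGATAR. Elk3, without a common OS in its body, had numbers 5212 and 3425 in intron 1, at 1.8 and 25.5 kb, the first without WGATAR and the other with 1. These are peaks of a single caller with no value for the input of their own.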

How the results depend on the processing

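No paired analysis was possible because both replicates are merged in each list. Of 152 recomputed values, 113 kept their direction and side of the threshold (counts within 1.5 times). The first 2204 places of the common list held 14 member OS, and requiring a reciprocal overlap of 50% left 0 SPP peaks meeting a MACS2 peak, whose peaks are wider by construction. In 10 kb windows 2 ETS, 6 SCL partner and 2 SOX relatives had an OS. The WGATAR difference was -18.2 percentage points (exact p = 0.0532) in the MACS2 list, turned to 2.04 in 500 bp and ranged from -6.19 to 10.5 without each gene, positive without Ets1 (10.5) or Tal1 (2.43). The ETS difference was 22.8 (exact p = 0.0384) in 100 bp, and the CTG with GATAA difference 11.6 (exact p = 0.0314) in 100 bp and 14.2 (exact p = 0.0376) for OS within 10 kb, all unadjusted. The SOX difference was -0.369 in the OS as deposited, -3.88 in 100 bp and -0.315 within 10 kb. The difference of mean position ranged from -383 to 55.4 without each gene (positive without Erg) and was -887 in the MACS2 list (permutation p = 0.00364). There, in an alternative chosen after seeing the data, leaving out each gene gave -1038 to -655, with permutation p from 0.00081 to 0.0646, the last without Erg. The cause of these shifts was not tested. The number of 24 sites limits every share.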
